A study of Homo sapiens with 24 samples.

Results

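The Krüppel-like factor (KLF) genes KLF2, KLF4, KLF5, KLF6, KLF7, KLF9, KLF10, KLF11, KLF13 and KLF16 were followed in the cytoplasm of stressed cells. They were taken by gene symbol, and all 10 were found among the 60308 genes of the exon count table and among the 37473 genes of the intron count table. The cells were U2OS, a human osteosarcoma line, and carried no engineered allele in any group. Control cells (Ctrl) were given 0.12% DMSO for 2 h. NaAsO2 cells were given 500 µM sodium arsenite, an inducer of oxidative stress, for 60 min, and RK-33 cells 6 µM of RK-33, an inhibitor of the RNA helicase DDX3. Combo cells were treated with RK-33 for 1 h and then with NaAsO2. A pre-treatment of 1 h is listed for RK-33 cells too, and DMSO is listed for Ctrl cells only. Each lysate was cleared of nuclei and separated into a soluble fraction and an insoluble fraction, the pellet that is enriched for stress granules and P-bodies, so that 12 lysates gave 24 libraries in 8 groups of 3 replicates.

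KLF proteins are transcription factors with a conserved zinc finger domain at the C-terminus, and they bind GC boxes and CACCC elements in promoters together with the related SP proteins. KLF2, KLF4, KLF5, KLF6 and KLF7 mostly act as activators that recruit acetyltransferases, whereas KLF9, KLF10, KLF11, KLF13 and KLF16 bind the corepressor SIN3A. Several KLF mRNAs are short-lived and are induced rapidly by growth factors, TGF-beta, shear stress or hormones, and so they are followed as early response genes.

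Exon and intron counts together came to 10968059 to 19799530 a library (median 14567729). Replicate 3 of the NaAsO2 insoluble group stood apart from its group. Its share of RN7SL1, the RNA of the signal recognition particle, was 5.79% of exon counts, against 0.426% to 1.23% in the other insoluble libraries. KLF levels in that library also departed from replicates 1 and 2, and calls that rest on it are given with and without it. Intron shares varied within other groups as well. Introns held 28.4% of counts in replicate 3 of Combo soluble, against 18.1% and 19.5% in replicates 1 and 2, and 13.3% to 22.6% in RK-33 soluble libraries. RUNX2, VIM and COL1A1, markers of the osteosarcoma and mesenchymal type, were present in every library, while COL1A2 reached at most 2.25 CPM. The summed level of 8 blood, epithelial and endothelial markers was 10.7 to 19.2 CPM. The study's methods state that the experiment was done 3 times in every condition. Labels give replicate numbers but do not say whether cultures were separate, so p-values measure the spread between these samples, which may be technical.

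The RefSeq promoter windows (GRCh38.p14, 250 bases before to 50 after a start site) held 14 windows for 9 of the 10 genes, with none for KLF10. Stretches upstream of 4 genes are shown as examples, and some elements are shared between them. Capitals mark every searched element, on either strand, that lies whole within a stretch. Elements elsewhere in a window, such as a GC box of KLF13, are not printed. No link between these elements and the changes below was tested.
KLF2: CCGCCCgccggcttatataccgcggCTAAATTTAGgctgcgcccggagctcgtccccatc
KLF6: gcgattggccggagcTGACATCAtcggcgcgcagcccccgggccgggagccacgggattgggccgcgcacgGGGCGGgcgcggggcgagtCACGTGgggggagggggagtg
KLF13: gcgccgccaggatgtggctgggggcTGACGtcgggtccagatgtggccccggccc
KLF16: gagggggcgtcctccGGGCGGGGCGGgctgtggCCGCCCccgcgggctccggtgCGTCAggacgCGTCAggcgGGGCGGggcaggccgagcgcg

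The KLF2 stretch lies at chr19:16324681-16324740 on the + strand, from -145 to -86 relative to the start site, and its capitals mark a GC box, as its reverse complement CCGCCC, and a MEF2 box. The MEF2 box was found in 1 of the 14 KLF windows and in 2.99% of all 35116 promoter windows. The KLF6 stretch, at chr10:3785286-3785396 on the - strand, holds the ATF-type element TGACATCA, a GC box GGGCGG and an E box CACGTG. TGACATCA occurred in 2.61% of all windows and in no other KLF window. The KLF13 stretch, at chr15:31326754-31326808 on the + strand, holds TGACG, the core of the cyclic AMP response element. The KLF16 stretch, at chr19:1863634-1863727 on the - strand, holds TGACG as its reverse complement CGTCA in 2 places, together with GC boxes, some of which overlap. TGACG occurred in 5 of the 14 KLF windows (5 genes) and in 24.6% of all windows. GGGCGG occurred in 9 of the 14 (8 genes) and in 45% of all windows, CACCC in 7 of the 14 (4 genes) and 59.9%, CACGTG in 4 of the 14 (4 genes) and 7.26%, and a CArG box in 1 of the 14 (KLF7) and 1.29%. These matches are descriptions of the letters in the windows only.

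Levels are given as CPM, the counts of a gene relative to the library total after TMM scaling, and they are shares of a library, not amounts per cell. In bulk RNA, fewer cells with an RNA and less of it per cell cannot be told apart. Per kilobase of merged exon, KLF5, a factor of proliferating epithelium, was the highest in Ctrl soluble libraries at 42.4 ± 1.79 CPM per kilobase (SD, n = 3). KLF10 followed at 32.5 ± 3.54 and KLF13 at 22.2 ± 0.657. KLF16 was at 19.4 ± 1.89, KLF6 at 14.7 ± 0.309 and KLF11 at 14.6 ± 0.77 CPM per kilobase, the last pair closer than their spread. KLF7 was at 9.89 ± 0.27, KLF9 at 9.77 ± 0.076 and KLF2 at 5.63 ± 1.22 CPM per kilobase. KLF4, known from the reprogramming of somatic cells to pluripotency, had only 1 to 22 exon counts in any library and was below the mean of 1 CPM needed for a test. Its highest levels were 0.996, 1.54 and 0.949 CPM in the 3 NaAsO2 insoluble libraries, and no library of another group passed 0.908 CPM. The other 9 genes were tested together with all 17666 exon and 17406 intron genes that passed this filter. A gene was called at an edgeR quasi-likelihood adjusted p under 0.05 and a log2 fold change of 1 or more in either direction.

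**Figure D1:**
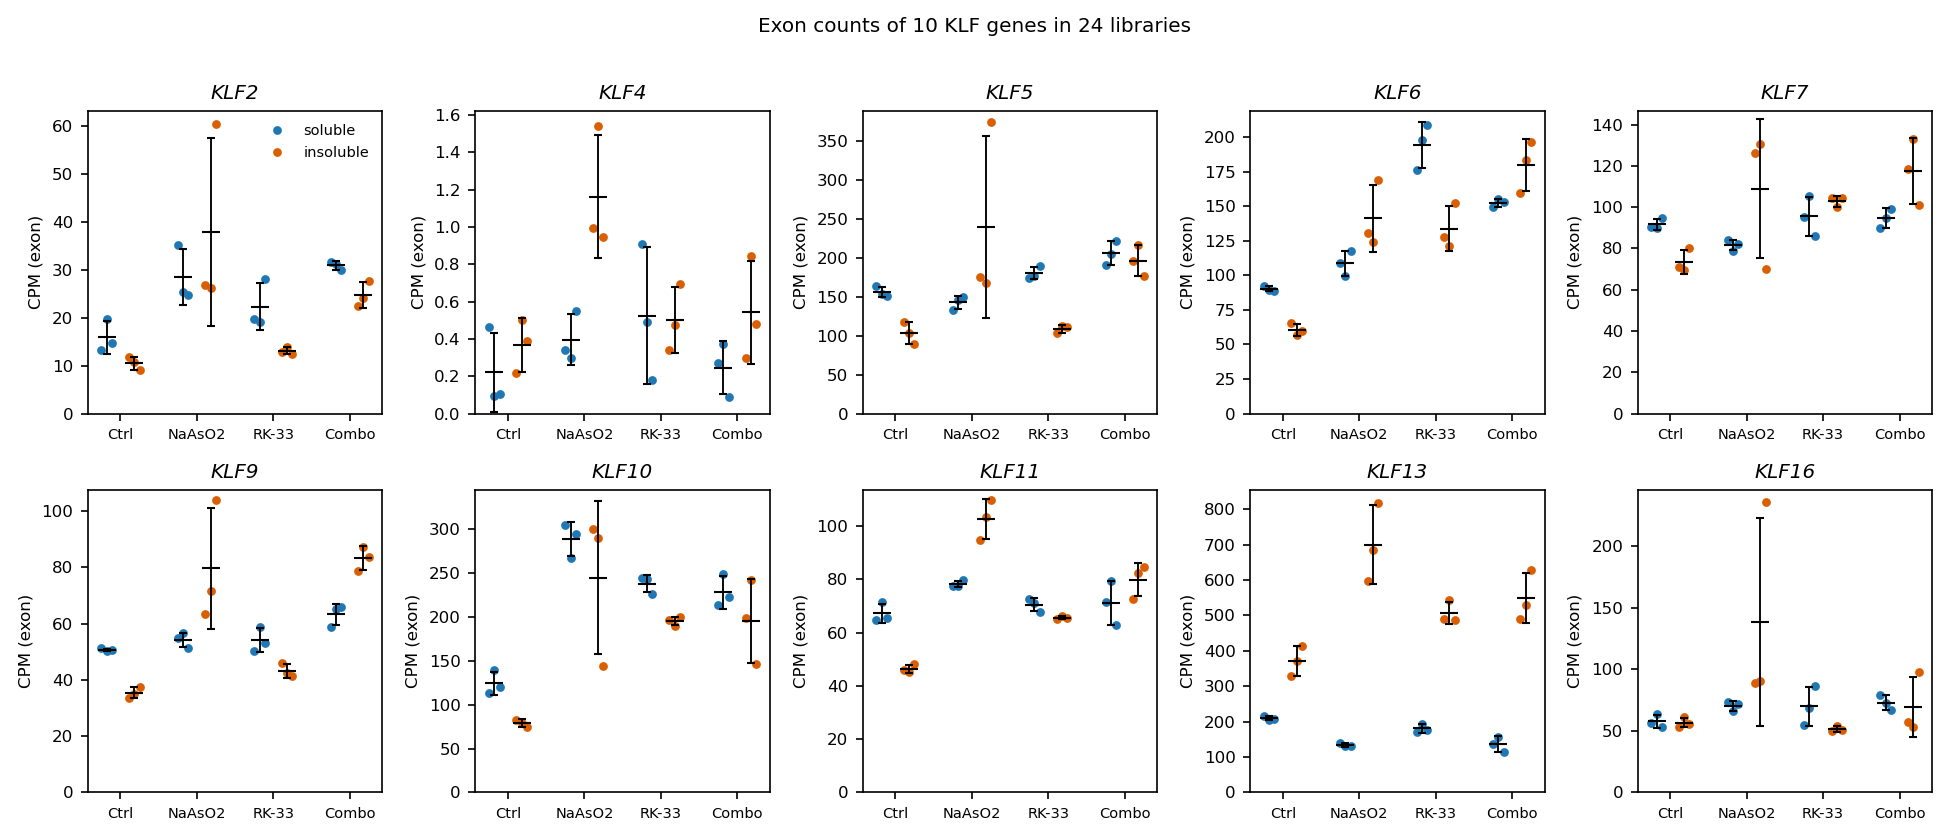
Exon levels of the 10 KLF genes in CPM (vertical axis, linear, from 0) by treatment (horizontal axis); each point is 1 library, the dash and bar are mean ± SD of 3 replicates, and colour marks the fraction. KLF13 is the gene with insoluble libraries above soluble ones in every treatment, and 1 NaAsO2 insoluble library lies away from its replicates for KLF2, KLF5, KLF7, KLF10 and KLF16.

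The first comparison asked what arsenite did to KLF RNA in each fraction. In the insoluble fraction, 7 of the 9 tested KLF genes rose past the limits and none fell: KLF2, KLF5, KLF6, KLF9, KLF10, KLF11 and KLF16. Of all 17666 genes, 14% were called there, in either direction. The median log2 fold change of the 9 genes was 1.21, against -0.02 over all genes. Since the KLF genes were chosen with earlier results of these data known, such contrasts with all genes, here and below, are descriptions only. In the soluble fraction KLF10 alone was called, against 1.68% of all genes, and the median of the 9 genes was 0.22. Without replicate 3 of the NaAsO2 insoluble group, the insoluble count dropped to 4 (KLF2, KLF6, KLF10 and KLF11), because KLF5, KLF9 and KLF16 fell below the fold limit.

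KLF10, a TGF-beta-inducible early response factor, was called in both fractions. In the soluble fraction it was at 113, 139 and 120 CPM in Ctrl and at 304, 267 and 294 CPM after NaAsO2. All treated libraries were far above all controls, with a log2 fold change of 1.22 with an SE of 0.19 (adjusted p = 0.000303; ± after a log2 value is the SE throughout). In the insoluble fraction it was at 83, 79.6 and 74.3 CPM in Ctrl and at 300, 290 and 144 CPM after NaAsO2. The groups did not overlap, although the third treated library lay well below the other treated ones. The log2 fold change was 1.63 ± 0.20 (adjusted p = 1.91e-06) and 1.97 ± 0.13 without that library. KLF11, the closest relative of KLF10, rose in the insoluble fraction from 46, 45.1 and 48.2 CPM to 94.8, 103 and 110 CPM. These libraries agreed closely, and its log2 fold change of 1.15 ± 0.10 (adjusted p = 2.56e-08) was 1.16 without the library that stood apart. For soluble libraries KLF11 gave 0.22 ± 0.10 (adjusted p = 0.14).

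Among the activators, KLF6, a widely expressed early response factor first described at core promoter elements, was at 65.5, 56.7 and 59.4 CPM in the Ctrl insoluble libraries. It reached 130, 124 and 169 CPM after NaAsO2, with no overlap and a log2 fold change of 1.22 ± 0.12 (adjusted p = 2.37e-07). KLF2, a factor of endothelial quiescence that shear stress induces, was at 11.7, 10.8 and 8.98 CPM in Ctrl insoluble libraries. It reached 26.8, 26.2 and 60.5 CPM after NaAsO2, with a log2 fold change of 1.84 ± 0.26 (adjusted p = 1.17e-05), and of 1.41 without replicate 3. In the soluble fraction its log2 fold change was 0.84 ± 0.25 (adjusted p = 0.0286), under the fold limit, and 1.02 without replicate 2 of the Ctrl soluble group, which raised the soluble count to 2. KLF5 was at 117, 104 and 89.4 CPM in Ctrl insoluble libraries and at 176, 168 and 374 CPM after NaAsO2. Its log2 fold change was 1.21 ± 0.20 (adjusted p = 7.22e-05), and 0.80 without replicate 3 or 0.83 with exon and intron counts added. In soluble libraries KLF5 gave -0.13 ± 0.20 (adjusted p = 0.701). KLF7, which is studied in neuronal growth, was at 70.8, 69.3 and 80.2 CPM in Ctrl insoluble libraries and at 126, 131 and 70.1 CPM after NaAsO2. The last of these lay within the control range, and the log2 fold change of 0.57 ± 0.16 (adjusted p = 0.00619) missed the fold limit, as did the value without replicate 3, 0.87 ± 0.11 (adjusted p = 1.68e-07).

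Among the other SIN3A-binding members, KLF9, a glucocorticoid- and thyroid hormone-induced factor, was at 33.7, 35.2 and 37.5 CPM in Ctrl insoluble libraries. After NaAsO2 it was at 63.3, 71.7 and 104 CPM, a log2 fold change of 1.16 ± 0.13 (adjusted p = 1.08e-06) that came to 0.997 without replicate 3, just under the limit. KLF16, which binds GC-rich elements as SP1 does, was at 53.5, 61 and 55.8 CPM in Ctrl insoluble libraries and at 89, 90.6 and 236 CPM after NaAsO2. Its log2 fold change of 1.28 ± 0.27 (adjusted p = 0.000861) was 0.73 without replicate 3, and with the compared groups fitted alone its adjusted p was 0.0595. KLF13, first described as an activator of CCL5 in T lymphocytes, moved in opposite directions in the fractions. It was at 217, 205 and 207 CPM in Ctrl soluble libraries and at 139, 131 and 130 CPM after NaAsO2, a log2 fold change of -0.65 ± 0.13 (adjusted p = 0.00238). For insoluble libraries it was at 330, 372 and 414 CPM in Ctrl and at 597, 683 and 818 CPM after NaAsO2, a log2 fold change of 0.91 ± 0.13 (adjusted p = 1.77e-05). Neither value reached the fold limit, although the groups did not overlap in either fraction. Without replicate 3 of Ctrl insoluble or replicate 1 of NaAsO2 insoluble, the second value was 1.03 and 1.10 and was called.

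**Figure D2:**
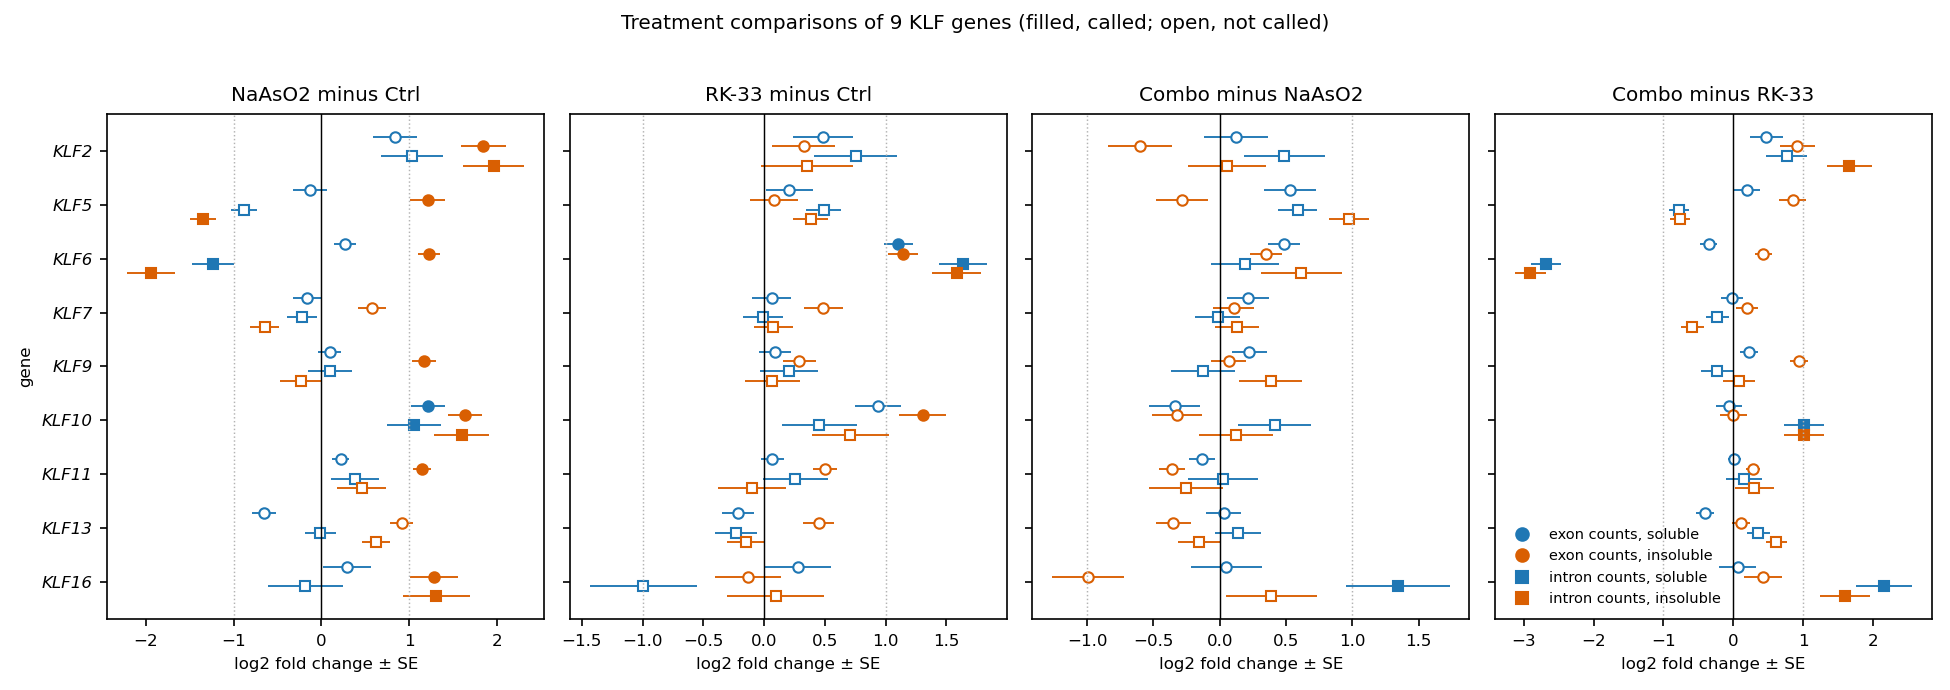
Log2 fold changes ± SE (horizontal axis) of the 9 tested KLF genes (vertical axis) in the 4 treatment comparisons; circles are exon counts, squares intron counts, colour marks the fraction and filled symbols were called. The insoluble exon values after NaAsO2 lie above 0 for all 9 genes, while KLF6 intron values lie at -1.24 and -1.94 after NaAsO2 and at 1.64 and 1.58 after RK-33.

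The second comparison asked what RK-33 did without arsenite. KLF6 rose in both fractions, and KLF10 rose in the insoluble fraction. In the soluble fraction 1 of the 9 genes was called, against 0.515% of all genes, and in the insoluble fraction 2 of the 9, against 1.86%. KLF6 went from 92.5, 89.4 and 89 CPM in Ctrl soluble libraries to 176, 198 and 209 CPM after RK-33, a log2 fold change of 1.10 ± 0.12 (adjusted p = 1.1e-05). In insoluble libraries it reached 128, 121 and 152 CPM, a log2 fold change of 1.14 ± 0.12 (adjusted p = 1.6e-06). RK-33 libraries were above every Ctrl library in both fractions. KLF10 reached 196, 190 and 199 CPM in the RK-33 insoluble libraries, a log2 fold change of 1.31 ± 0.19 (adjusted p = 8.08e-05). Among soluble libraries it reached 244, 243 and 227 CPM, and its log2 fold change of 0.94 ± 0.19 (adjusted p = 0.00451) was just under the limit. Without replicate 2 of the Ctrl soluble group it was 1.03, and the soluble count became 2. KLF11, KLF13 and KLF7 were at log2 fold changes of 0.50, 0.45 and 0.49 in the insoluble fraction, with adjusted p of 0.00144, 0.0239 and 0.0423. KLF2, KLF5, KLF9 and KLF16 gave values between -0.13 and 0.48 in the 2 fractions, none with an adjusted p below 0.169.

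The third comparison asked how RK-33 altered the response to arsenite. Between Combo and NaAsO2, 0 of the 9 genes were called in exon counts in either fraction, against 2.43% (soluble) and 3.93% (insoluble) of all genes. At an unadjusted p under 0.05, edgeR gave 2 genes (soluble) and 5 (insoluble). The share of all genes at that unadjusted threshold was not taken. Counts at an unadjusted p, here and below, therefore cannot be set against all genes. DESeq2 called 0 and 1, and the likelihood ratio test 0 and 0. KLF6 was somewhat higher in Combo soluble libraries, at 149, 155 and 153 CPM against 109, 99.2 and 118 CPM, a log2 fold change of 0.49 ± 0.12 (adjusted p = 0.0186). KLF16 was lower in Combo insoluble libraries, at 57.3, 52.9 and 97.5 CPM, with a log2 fold change of -0.99 ± 0.27 (adjusted p = 0.0188). That value rests on replicate 3 of the NaAsO2 insoluble group, without which it was -0.42 (adjusted p = 0.102). KLF16 passed the limit, reaching up to -1.34, and the count became 1, when any of 10 other libraries was left out: replicate 3 of Ctrl insoluble, 1 or 3 of NaAsO2 soluble, 1 or 2 of NaAsO2 insoluble, 3 of RK-33 insoluble, any of Combo soluble or 3 of Combo insoluble. Without replicate 3 of NaAsO2 insoluble KLF10 went from -0.32 (adjusted p = 0.241) to -0.64 (adjusted p = 0.00103), and KLF2 from -0.60 to -0.15. Between Combo and RK-33, 0 of the 9 genes were called in either fraction, against 2.02% of all genes (soluble) and 2.62% (insoluble). Unadjusted p fell under 0.05 for 2 and 5 genes, and DESeq2 and the likelihood ratio test called 0 in each. KLF9 came nearest, at 78.8, 87.2 and 83.9 CPM in Combo insoluble libraries against 46.1, 42.3 and 41.5 CPM after RK-33, a log2 fold change of 0.94 ± 0.13 (adjusted p = 6.47e-05). KLF2 and KLF5 followed at 0.92 and 0.85, with adjusted p of 0.0265 and 0.00944.

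The interaction term measures by how much the effect of NaAsO2 after RK-33 differed from its effect in Ctrl cells. KLF10 was called in both fractions, as 1 of 9 genes each, against 0.957% of all genes (soluble) and 3.97% (insoluble). Its Combo libraries were at 213, 249 and 222 CPM in the soluble fraction, above every Ctrl library and below every NaAsO2 library. With RK-33 alone KLF10 was already at 227 to 244 CPM there, within the range of the Combo libraries. The interaction was -1.28 ± 0.27 (adjusted p = 0.0135) in the soluble fraction. It was -1.17 to -1.22 and missed the threshold, at an adjusted p of 0.0514 to 0.0547, when replicate 1 of Ctrl soluble, replicate 1 or 3 of NaAsO2 soluble or replicate 3 of Combo soluble was left out, which brought the count to 0. With library size alone as the scaling it was -1.10 (adjusted p = 0.0648). In the insoluble fraction Combo libraries were at 199, 241 and 146 CPM, and libraries with RK-33 alone at 190 to 199 CPM. The interaction there was -1.63 ± 0.27 (adjusted p = 0.000644), or -1.96 without replicate 3 of NaAsO2 insoluble. KLF11, KLF13 and KLF6 had insoluble interactions of -0.86, -0.80 and -0.79, with adjusted p of 0.000497, 0.00764 and 0.00498, and the estimates of all 9 genes were below 0. Without replicate 3 of NaAsO2 insoluble that held for 8: KLF5 went from -0.36 to 0.05, KLF9 from -0.22 to -0.05, KLF16 from -0.86 to -0.30 and KLF2 from -0.92 to -0.48, while KLF7 went from -0.38 to -0.68 (adjusted p = 0.00135). The insoluble count was 3 without replicate 1 or replicate 2 of NaAsO2 insoluble and 2 without replicate 3 of Combo insoluble.

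Intron counts were read next, since RNA that still holds introns reports on another stage of a transcript than exon counts. Counts were low, and the group sums of KLF6 introns, for example, ranged from 34 fragments in NaAsO2 insoluble libraries to 699 in RK-33 soluble libraries. After NaAsO2, KLF6 and KLF5 introns fell while KLF10 and KLF2 introns rose. In the insoluble fraction 5 of the 9 genes were called, 3 higher and 2 lower, against 13.9% of all 17406 genes. In the soluble fraction 2 were called, 1 in each direction, against 2.51%. Intron shares of whole libraries moved as well: introns held 30.5% to 36.3% of counts in Ctrl insoluble and 17.2% to 24.3% in NaAsO2 insoluble libraries. The summed level of the nuclear-retained RNAs MALAT1, NEAT1 and KCNQ1OT1 was 6943 to 8830 CPM in the former and 2351 to 3470 CPM in the latter. The part of these changes in the KLF intron results was not tested.

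In the insoluble fraction KLF6 introns and exons went in opposite directions after NaAsO2. Its introns were at 15.1, 14.2 and 11.4 CPM in Ctrl insoluble libraries and at 3.63, 3.56 and 3.33 CPM after NaAsO2, a log2 fold change of -1.94 ± 0.27 (adjusted p = 1.15e-05). The groups were far apart, and in the soluble fraction the change was -1.24 ± 0.24 (adjusted p = 0.00201). KLF6 exons in soluble libraries were at 89 to 92.5 CPM in Ctrl and at 99.2 to 118 CPM after NaAsO2, a rise that was not called. After RK-33, in contrast, KLF6 introns rose from 21.1, 26.4 and 24.2 CPM to 68, 74.9 and 79.9 CPM in soluble libraries, a log2 fold change of 1.64 ± 0.20 (adjusted p = 3.26e-06). In insoluble libraries they rose to 40.6, 40.4 and 41.4 CPM, a log2 fold change of 1.58 ± 0.20 (adjusted p = 5.67e-06). KLF6 was the 1 gene of 9 called in RK-33 introns in each fraction, against 0.666% of all genes (soluble) and 0.908% (insoluble). In Combo libraries KLF6 introns were near the NaAsO2 level, at 11.5, 16 and 7.73 CPM in the soluble and 4.46, 5.74 and 6.12 CPM in the insoluble fraction. Against RK-33 this was a log2 fold change of -2.68 ± 0.21 and of -2.91 ± 0.23 (adjusted p = 1.04e-10 and 6.01e-11). KLF6 had 7.47 ± 0.527 intron counts per 100 exon counts in Ctrl soluble libraries, 2.03 ± 0.44 after NaAsO2, 9.66 ± 1.81 after RK-33 and 2.13 ± 0.499 in Combo (SD, n = 3). In insoluble libraries the same order of treatments gave 10.3 ± 1.89, 0.671 ± 0.132, 14.1 ± 2.29 and 0.987 ± 0.146.

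KLF5 introns were lower after NaAsO2 as well. Its introns were at 148, 137 and 152 CPM in Ctrl insoluble and at 66.1, 63.4 and 41.5 CPM in NaAsO2 insoluble libraries, a log2 fold change of -1.35 ± 0.15 (adjusted p = 4.7e-07). In the soluble fraction the change was -0.88 ± 0.15 (adjusted p = 0.000463). Every RK-33 library was above every Ctrl library of its fraction, at 222 to 284 against 170 to 202 CPM (soluble) and 175 to 201 against 137 to 152 CPM (insoluble). The log2 fold changes after RK-33 were 0.49 ± 0.14 (soluble) and 0.38 ± 0.14 (insoluble) (adjusted p = 0.122 and 0.164). KLF5 had 64.9 ± 6.54 intron counts per 100 exon counts in Ctrl insoluble libraries and 7.34 ± 3.75 after NaAsO2. KLF9, whose exon counts rose in the same fraction, had 35.2 ± 11.4 and 8.15 ± 5.26, with an intron log2 fold change of -0.24 ± 0.24 (adjusted p = 0.461), and of 0.05 without replicate 3. The mean intron count per 100 exon counts was lower in NaAsO2 insoluble than in Ctrl insoluble libraries for every other tested gene too. For KLF7 the means were 35.9 and 143, and for KLF10 3.11 and 3.74.

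KLF10 introns, like its exons, were higher after NaAsO2 than in Ctrl. They were at 6.71, 6.52 and 6.16 CPM in Ctrl insoluble and at 16.5, 11.7 and 31.1 CPM in NaAsO2 insoluble libraries, a log2 fold change of 1.59 ± 0.31 (adjusted p = 0.000421), or 1.15 (adjusted p = 0.00435) without replicate 3 of the latter. In soluble libraries they went from 9.94, 16.4 and 10.8 CPM to 26.1, 26.5 and 24 CPM, a log2 fold change of 1.05 ± 0.31 (adjusted p = 0.039). The soluble call was lost, with adjusted p of 0.0818 to 0.187, when replicate 1 or 3 of Ctrl soluble or any of the 3 NaAsO2 soluble libraries was left out, which left 1 gene called. KLF2 introns rose in the insoluble fraction from 2.38, 3.15 and 2.74 CPM to 8.23, 11.4 and 13.3 CPM, a log2 fold change of 1.96 ± 0.35 (adjusted p = 0.000155). KLF16 introns gave 1.31 ± 0.38 (adjusted p = 0.0102), lost without replicate 3 of NaAsO2 insoluble (0.84, adjusted p = 0.112) or replicate 3 of Ctrl insoluble (adjusted p = 0.0574). KLF16 missed the threshold, too, when the compared groups were fitted alone (adjusted p = 0.0865). KLF13 introns, at 0.62 ± 0.16 (adjusted p = 0.00378), and KLF7 introns, at -0.64 ± 0.16 (adjusted p = 0.00391) or -0.42 without replicate 3, missed the fold limit.

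The size of these intron changes depended on the scaling. When intron counts were scaled with the exon library sizes and factors, the median of all genes moved to -0.67 for NaAsO2 against Ctrl in the insoluble fraction. KLF6 was then at -2.73, KLF5 at -2.14, KLF7 at -1.47, KLF9 at -1.05 and KLF2 at 1.21, all called. KLF10, at 0.90 with an adjusted p of 0.0288, and KLF16, at 0.61, were not called, while they lay 1.58 and 1.28 above the median of all genes. KLF13 changed sign, from 0.62 to -0.12, and KLF11 from 0.46 to -0.29. Within the soluble fraction the median moved to -0.33, KLF5 was called at -1.23, and KLF10 was at 0.73 and not called.

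**Figure D3:**
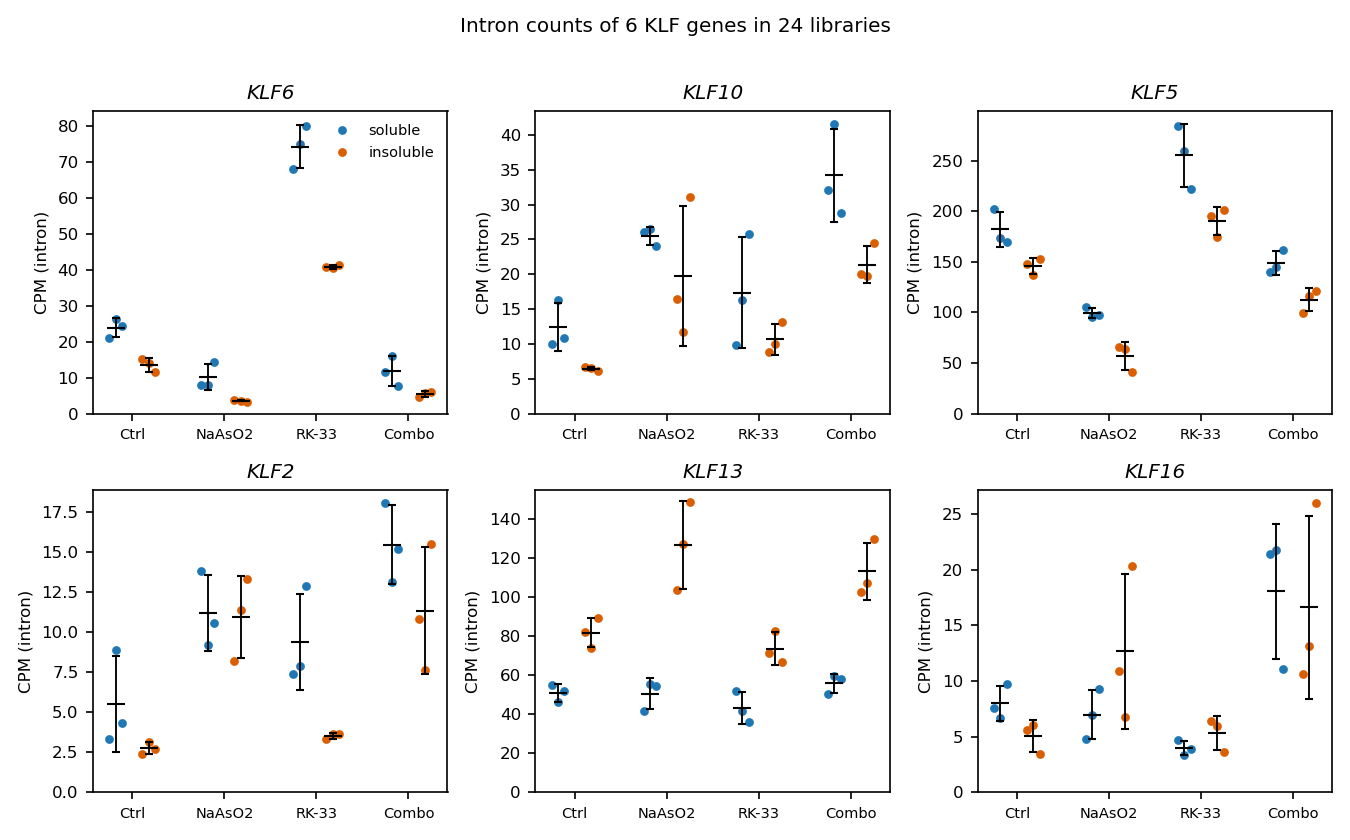
Intron levels of 6 KLF genes in CPM (vertical axis, linear, from 0) by treatment (horizontal axis); points are libraries, dash and bar are mean ± SD of 3 replicates, and colour marks the fraction. KLF6 introns are highest in RK-33 libraries, at 68 to 79.9 CPM in the soluble fraction, and lowest in NaAsO2 insoluble libraries, at 3.33 to 3.63 CPM.

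In Combo libraries KLF16 introns stood out. They were at 21.4, 21.7 and 11.1 CPM in the soluble fraction, against 4.79, 6.91 and 9.23 CPM after NaAsO2 and 4.68, 3.38 and 3.86 CPM after RK-33. No Combo library fell within the range of either single treatment. The log2 fold change was 1.34 ± 0.39 against NaAsO2 (adjusted p = 0.0177) and 2.16 ± 0.40 against RK-33 (adjusted p = 0.00015). The first call, the only 1 of 9 genes against 6.26% of all genes, was lost when replicate 1 or 2 of NaAsO2 soluble or of Combo soluble was left out (adjusted p 0.0654 to 0.0915). These are 43 to 78 fragments per Combo soluble library and 9 to 20 per NaAsO2 soluble library, and an antisense transcript overlaps part of the KLF16 introns, whose fragments the counting did not tell apart by strand. Among insoluble libraries 0 of 9 genes were called against NaAsO2, where 10.3% of all genes were; 1 gene had an unadjusted p under 0.05, and DESeq2 and the likelihood ratio test called 0. That gene was KLF5, at 0.97 ± 0.15 (adjusted p = 2.13e-05), which passed the fold limit without replicate 1 or 2 of NaAsO2 insoluble (1.10 and 1.05) or replicate 1 of Combo insoluble (1.05). The comparison of Combo with RK-33 called 3 of 9 genes in soluble introns, KLF6, KLF10 and KLF16, against 13% of all genes. In insoluble introns it called 4, KLF2, KLF6, KLF10 and KLF16, against 14.4%. KLF2 rose there by 1.66 ± 0.32 (adjusted p = 0.000162) and KLF10 by 1.01 ± 0.28 (adjusted p = 0.00683). The KLF10 calls were close to the fold limit: the soluble one was lost without replicate 2 of NaAsO2 soluble, 1 or 2 of RK-33 soluble or 2 of Combo soluble, and the insoluble one without replicate 1 or 2 of RK-33 insoluble or 3 of Combo insoluble. The insoluble call was also lost, at 0.99 to 1.00, with RLE factors, DESeq2, no filter or the compared groups alone, and at 0.52 (adjusted p = 0.215) with the exon library sizes and factors. The soluble one was lost at 0.99 with the compared groups alone and at 0.81 with library size alone.

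For soluble introns the interaction was called for 2 of 9 genes, against 2.62% of all genes. It was -1.44 ± 0.33 for KLF6 (adjusted p = 0.00916) and 2.34 ± 0.59 for KLF16 (adjusted p = 0.0214). KLF16 was lost without replicate 3 of Ctrl soluble, replicate 1 or 2 of NaAsO2 soluble or replicate 2 of RK-33 soluble, and KLF6 without replicate 3 of NaAsO2 soluble, which left 1 gene each time. With the exon library sizes and factors KLF6 was at -0.93 (adjusted p = 0.147). KLF10 introns gave -0.04 ± 0.41 (adjusted p = 0.978). For insoluble introns 0 of 9 genes were called by edgeR, DESeq2 and the likelihood ratio test, against 7.14% of all genes, and 2 had an unadjusted p under 0.05.

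**Figure D4:**
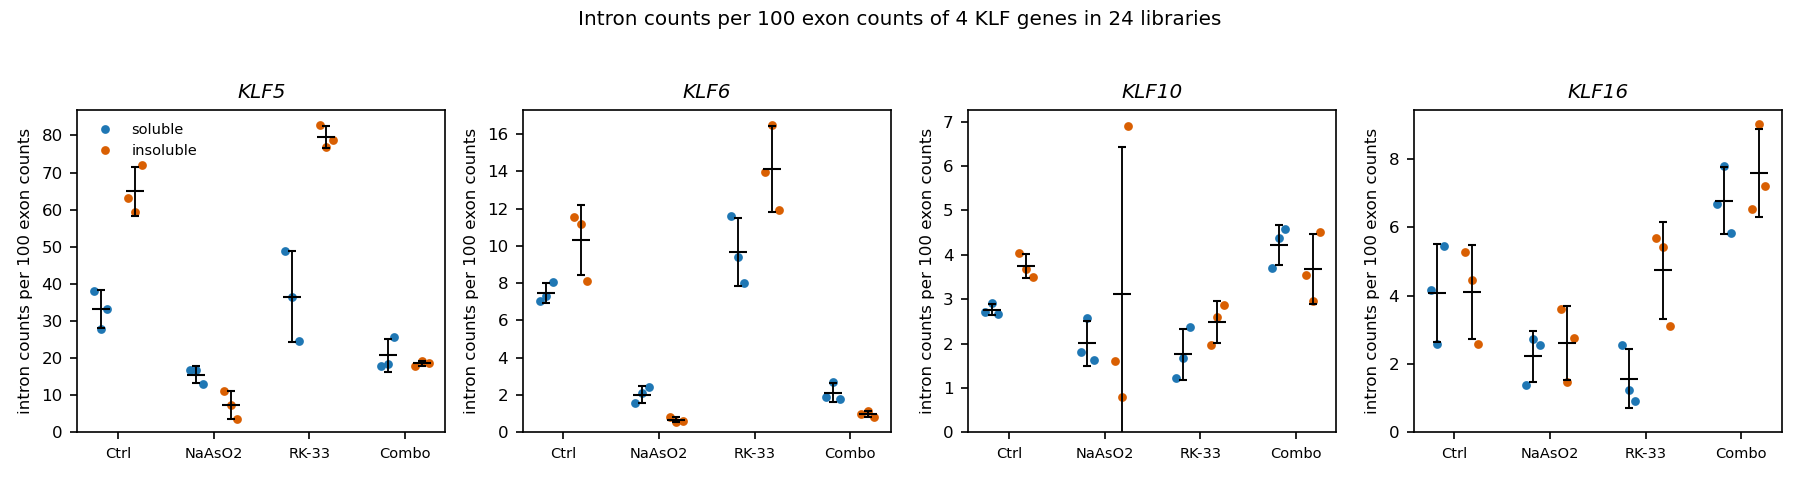
Intron counts per 100 exon counts (vertical axis, linear, from 0) of 4 KLF genes by treatment (horizontal axis); points are libraries, dash and bar are mean ± SD of 3 replicates, and colour marks the fraction. For KLF5 and KLF6 the NaAsO2 and Combo libraries lie below all Ctrl libraries of the same fraction, and for KLF16 the Combo libraries lie above the NaAsO2 libraries in both fractions.

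The last comparison asked how the CPM of KLF genes differed between the fractions. Such a ratio compares shares of separately scaled libraries. It does not measure which part of a gene's RNA was in the pellet. In Ctrl cells 8 of the 9 genes were at lower CPM in the insoluble fraction and KLF13 at higher CPM. None was called by edgeR, DESeq2 or the likelihood ratio test, against 22.5% of all genes, while 7 had an unadjusted p under 0.05. Without the fold limit, edgeR gave an adjusted p under 0.05 for 1 gene higher and 5 lower in the insoluble fraction. Of all genes, 51% had such a p in either direction. KLF13 had a log2 ratio of insoluble to soluble of 0.83 ± 0.13 (adjusted p = 2.22e-05). KLF10, KLF5, KLF6, KLF11 and KLF9 were at -0.65, -0.60, -0.58, -0.53 and -0.52, with adjusted p between 0.000128 and 0.0149. After NaAsO2, KLF13 was called at 2.39 ± 0.14 (adjusted p = 3.23e-12), as 1 of 9 genes against 30.6% of all genes. Its ratios in single lysates were 0.61, 0.86 and 1.00 in Ctrl and 2.10, 2.39 and 2.66 after NaAsO2, with no overlap. KLF16 lay at 0.97 ± 0.27 (adjusted p = 0.00401), and without replicate 3 of NaAsO2 insoluble at 0.39. It passed the limit, at 1.04 to 1.28, and the count became 2, when replicate 1 or 3 of NaAsO2 soluble, 1 or 2 of NaAsO2 insoluble, 3 of RK-33 insoluble or any of Combo soluble was left out. In RK-33 and Combo cells KLF13 was again the 1 gene called, at 1.49 ± 0.13 and 2.01 ± 0.14 (adjusted p = 5.32e-09 and 1.17e-10), against 30.7% and 23.1% of all genes.

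The fraction shift is the difference of these log2 ratios between treatments, tested in the same fit. By their estimates, the ratios of all 9 genes were higher after NaAsO2 than in Ctrl, with a median shift of 0.99 against -0.02 over all genes. KLF13 (1.56 ± 0.19, adjusted p = 5.77e-06), KLF5 (1.34 ± 0.28, adjusted p = 0.00135), KLF9 (1.07 ± 0.19, adjusted p = 0.0003) and KLF2 (1.00 ± 0.35, adjusted p = 0.0447) were called, 4 of 9 against 9.56% of all genes. KLF6 and KLF11, at 0.95 and 0.93 with adjusted p of 0.000428 and 7.03e-05, lay just under the fold limit, and KLF7 was at 0.74 (adjusted p = 0.0204). In single lysates KLF6 ratios were -0.50, -0.66 and -0.58 in Ctrl and 0.26, 0.33 and 0.52 after NaAsO2. KLF11 ratios were -0.50, -0.66 and -0.44 in Ctrl and 0.29, 0.41 and 0.46 after NaAsO2. For both genes all NaAsO2 lysates lay above all Ctrl lysates. Without replicate 3 of NaAsO2 insoluble, KLF13 (1.52) and KLF7 (1.06) were called, KLF11, KLF5, KLF9 and KLF6 were at 0.96, 0.95, 0.92 and 0.89, and KLF2 was at 0.59 (adjusted p = 0.0643). Without replicate 1 of NaAsO2 insoluble, replicate 3 of RK-33 insoluble or any 1 of the 3 Combo soluble libraries the count was 7; in these fits the median of all genes had moved by 0.144 to 0.148. KLF16 gave 0.99 ± 0.38 (adjusted p = 0.0663) with all libraries and 0.46 (adjusted p = 0.151) without replicate 3. KLF10 gave 0.42 ± 0.27 (adjusted p = 0.28) and 0.77 (adjusted p = 0.00129). With the replicate number as a block KLF2 was at 0.97 (adjusted p = 0.0521), and with the lysate as a block at 0.90 (adjusted p = 0.0998), which ended its call. KLF2 was also lost, at an adjusted p of 0.0512 to 0.122, without replicate 2 or 3 of Ctrl soluble, any of Ctrl insoluble, 2 or 3 of NaAsO2 soluble, 1 or 2 of RK-33 insoluble or 1 or 2 of Combo insoluble.

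No KLF gene shifted past the limits between Combo and NaAsO2, where 0.142% of all genes did, or between RK-33 and Ctrl, where 0.436% did. DESeq2 and the likelihood ratio test called 0 in each, and 3 and 2 genes had an unadjusted p under 0.05. The count for Combo against NaAsO2 was 2 without replicate 1 of NaAsO2 insoluble and 1 without replicate 3 of Combo insoluble. KLF13 shifted by -0.38 ± 0.19 (adjusted p = 0.388) and KLF16 by -1.04 ± 0.38 (adjusted p = 0.246) in Combo against NaAsO2, the latter by -0.51 without replicate 3 of NaAsO2 insoluble. These p-values do not show that the ratios were alike.

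**Figure D5:**
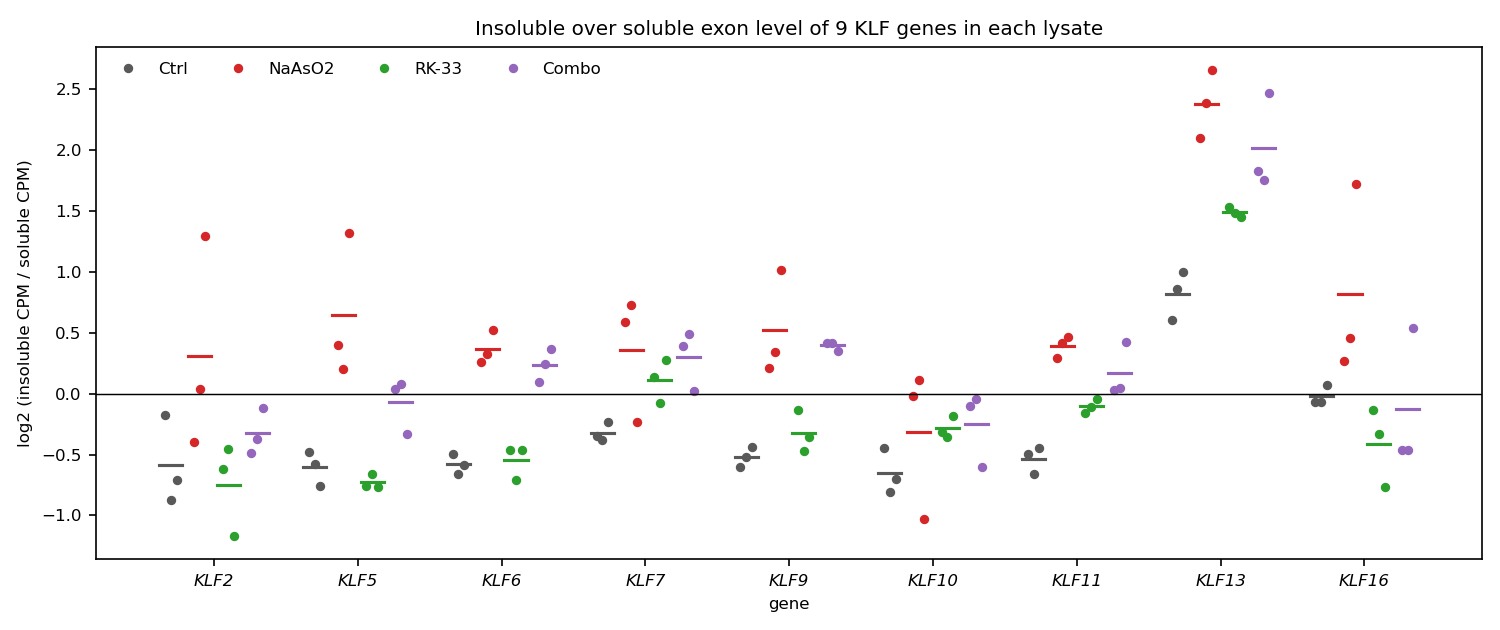
Log2 ratio of insoluble to soluble exon CPM (vertical axis) for the 9 tested KLF genes (horizontal axis); each point is 1 lysate, lines are means of 3 lysates and colours mark treatments. KLF13 lies above 0 in every lysate, from 0.61 to 2.66, and the NaAsO2 lysates of KLF6 and KLF11 lie above all of their Ctrl lysates.

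For introns the ratio of insoluble to soluble CPM differed between KLF6 and KLF13. KLF13 introns had log2 ratios of 0.68, 1.31, 0.76 and 1.02 in Ctrl, NaAsO2, RK-33 and Combo cells, and KLF6 introns had -0.81, -1.51, -0.86 and -1.09. In NaAsO2 and in Combo cells these 2 genes were called, against 11.1% and 12.7% of all genes. The Combo count was 1 without replicate 1 or 2 of Combo soluble or replicate 1 of Combo insoluble. With NaAsO2 the count was 3 without replicate 2 (KLF16) or 3 (KLF11) of NaAsO2 insoluble. In RK-33 cells KLF2 (-1.37 ± 0.34, adjusted p = 0.00147) and KLF11 (-1.10 ± 0.27, adjusted p = 0.00141) were called instead, against 25.9%. In Ctrl cells 0 of 9 were called by edgeR, DESeq2 and the likelihood ratio test, against 18.9%, and 7 had an unadjusted p under 0.05. The count there was 2 (KLF2 and KLF10) without replicate 1 or 3 of Ctrl soluble. With the exon library sizes and factors the medians of all genes in these 4 comparisons lay between 0.17 and 0.76, and these intron ratios hold relative to other introns only. The KLF2 and KLF11 values in RK-33 cells were then -0.50 and -0.24 and not called, and KLF6 there moved from -0.86 to 0.01.

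The order of the 8 groups differed between members. For KLF6 the highest means were RK-33 soluble, at 194 ± 16.8 CPM, and Combo insoluble, at 180 ± 18.8 CPM, whose libraries overlapped, and the lowest was Ctrl insoluble, at 60.5 ± 4.48 CPM, apart from all others. For KLF10 the 6 groups with an agent lay between 195 and 289 CPM, each overlapping its neighbour in the order, and Ctrl soluble at 124 ± 13.5 and Ctrl insoluble at 79 ± 4.42 CPM were below them without overlap. For KLF13 the 4 insoluble groups were above the 4 soluble groups, with NaAsO2 insoluble highest at 700 ± 111 CPM and NaAsO2 soluble lowest at 133 ± 5.34 CPM, overlapping Combo soluble at 136 ± 22.1 CPM. Ctrl insoluble was the lowest group for KLF2, KLF5, KLF6, KLF7, KLF9, KLF10 and KLF11.

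Over the 8 group means, centred and on a log2 scale, the nearest gene of 10260 with a mean of at least 10 CPM was taken for each member. For KLF7 it was PPP2R2C, at a root mean square difference of 0.0562, for KLF11 SIAH2 at 0.0644, for KLF16 WTIP at 0.077, for KLF9 MKNK2 at 0.085 and for KLF13 UBN1 at 0.0926. For KLF2 it was BBC3 at 0.124, for KLF5 DYNLL2 at 0.142, for KLF6 MYC at 0.214 and for KLF10 PARD6B at 0.223. KLF6 and KLF10 thus had the largest distances to any neighbour among the 9 genes. Within the family, KLF5 and KLF9 were the closest pair, at 0.167, and KLF13 was farthest from its nearest member, KLF7, at 0.804. These distances are descriptions over 8 groups that share library depth and scaling.

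Among 17 other KLF and SP genes, 10 were tested. In the NaAsO2 insoluble comparison, where 14% of all genes were called, 3 were called higher: SP8 (1.45 ± 0.24, adjusted p = 7.84e-05), SP6 (1.27 ± 0.24, adjusted p = 0.000324) and KLF14 (1.12 ± 0.41, adjusted p = 0.0321), none lower, and the median of the 10 was 0.48. Their mean levels there were 11.4 ± 2.84, 9.41 ± 3.56 and 4.01 ± 2.90 CPM. Without replicate 3 of NaAsO2 insoluble, SP8 was at 1.31 (adjusted p = 4.22e-05) and SP6 at 1.00 (adjusted p = 0.000486), while KLF14 was at 0.47 (adjusted p = 0.287) and no longer called. In Combo soluble libraries SP6 was higher than after NaAsO2, at 8.60 ± 0.563 against 3.38 ± 0.107 CPM, a log2 fold change of 1.34 ± 0.25 (adjusted p = 0.00146). It was the only 1 of the 10 called there, against 2.43% of all genes. Of 15 regulators and cofactors, such as the kinase MAPK7, the MEF2 factors, SIN3A and the ubiquitin ligase adaptor FBXW7, all were tested. For NaAsO2 against Ctrl edgeR called 0 of them, against 1.68% (soluble) and 14% (insoluble) of all genes. An unadjusted p under 0.05 was reached by 4 and 11, and the share of all genes at that threshold was not taken. For Combo against NaAsO2 edgeR called 0, against 2.43% and 3.93% of all genes, with 6 and 6 at an unadjusted p under 0.05. Of 10 genes described as KLF targets, 8 were tested, and SMAD7, an inhibitor of TGF-beta signalling, was the only one called in these comparisons. At an unadjusted p under 0.05 were 3 and 6 genes for NaAsO2 against Ctrl and 0 and 4 for Combo against NaAsO2. SMAD7 rose from 71.2 ± 5.44 to 182 ± 38.3 CPM in the insoluble fraction after NaAsO2, where 14% of all genes were called. Its log2 fold change was 1.35 ± 0.11 (adjusted p = 1.69e-08).

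The genes lie apart from each other on GRCh38. KLF6 is at chr10:3775996-3785281 on the - strand, KLF5 at chr13:73054976-73077541 on the + strand, KLF13 at chr15:31326835-31435665 on the + strand, and KLF2 and KLF16 on chromosome 19, at chr19:16324826-16328685 on the + strand and chr19:1852399-1863579 on the - strand. KLF10 lies on chromosome 8 on the - strand. Opposite-strand transcripts share 67 exon bases with KLF7, 416 with KLF11 and 483 with KLF16, and since strand was not used in counting, reads from them cannot be told apart from reads of these genes.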

How the data were processed

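RNA of 24 rRNA-depleted libraries was counted by the authors, who aligned the reads to GRCh38.p13 with STAR 2.7.2b and deposited raw counts per gene from featureCounts 1.5.3 (GENCODE 40), 1 table for exons and 1 for introns, without strand. Introns were genes minus merged exons, with a minimum overlap of 25 bases. Depth was 10968059 to 19799530 exon plus intron counts per library. Rows split over several lines (1 exon, 21 intron) were rejoined. Of 394 deposited circRNA rows, 0 had a KLF host.

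Libraries were grouped by the labels. Genes averaging 1 CPM or more were tested with edgeR 4.0.16 (R 4.3.3): TMM scaling, quasi-likelihood test, all 24 libraries in 8 groups, Benjamini-Hochberg adjustment over all genes tested, with calls at an adjusted p under 0.05 and a log2 fold change of 1 or more either way. On counts simulated for NaAsO2 against Ctrl in soluble exons, 197 of 200 changed genes were recovered among 17666. The changes put in were all beyond the fold limit and in genes with high counts. This recovery therefore does not describe calls near the limit, the library that stood apart or low intron counts. Alternatives were other scalings, filters, thresholds, blocks, the likelihood ratio test and DESeq2 1.42.0, and each library left out. Nearest profiles used log2 CPM with a pseudocount of 0.5.

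Genes named were the 10 members, 1 nearest gene per member with a mean of at least 10 CPM, and up to 3 called genes per list with the largest fold change in NaAsO2 minus Ctrl and Combo minus NaAsO2. The members and lists were chosen with earlier results of these data known. RefSeq sequences and GRCh38.p14 were used for promoter windows only.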

Additional observations from a re-analysis of the deposited data

Results flagged for a closer look

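The results below were marked because the effect of a treatment differed between fractions or between cells with and without RK-33, by a test of the difference itself (edgeR quasi-likelihood test, Benjamini-Hochberg adjustment, 3 libraries a group). No explanation was weighed.

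For exon counts, the log2 ratio of insoluble to soluble was higher after NaAsO2 than in Ctrl for KLF13 by 1.56, KLF5 by 1.34, KLF9 by 1.07, KLF2 by 1.00, KLF6 by 0.95, KLF11 by 0.93 and KLF7 by 0.74. For KLF2, KLF5 and KLF7 replicate 3 of the NaAsO2 insoluble group moved the value by more than 0.3, to 0.59, 0.95 and 1.06 without it.

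The effect of NaAsO2 on KLF10 exon counts was smaller after RK-33 by 1.28 in the soluble fraction (interaction -1.28) and by 1.63 in the insoluble fraction (interaction -1.63). With RK-33 alone KLF10 was already above every Ctrl library, at 227 to 244 CPM (soluble) and 190 to 199 CPM (insoluble). In the insoluble fraction the interaction was also below 0 for KLF11 at -0.86, KLF13 at -0.80 and KLF6 at -0.79. For introns in the soluble fraction it was -1.44 for KLF6 and 2.34 for KLF16.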

How the results depend on the processing

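Across single KLF values, 6578 of 6696 kept their side of the limits with 1 library left out (48 lost and 70 gained a call) and 2552 of 2628 under the other alternatives (26 lost, 50 gained); no called value changed sign. Of the counts of KLF genes called, 686 of 744 and 291 of 352 stayed within 1.5 times. Below, counts are genes called of 9. Without a fold limit exon counts were 3 and 9 for NaAsO2 against Ctrl (soluble, insoluble; all genes 13.3% and 43.1%), 2 and 5 for RK-33 (5.33% and 13.9%), 1 and 2 for Combo against NaAsO2 (6.46% and 13.8%), 4 for Combo against RK-33 (insoluble, 7.12%), 6, 7, 5 and 2 for the fractions in Ctrl, NaAsO2, RK-33 and Combo (all genes 51%, 57.6%, 59.6% and 52.1%), 7 for the NaAsO2 shift (22.3%) and 4 for the insoluble interaction (11.6%); intron counts were 2 and 1 for Combo against NaAsO2 (14.4% and 26.6%), 7 for Combo against RK-33 (insoluble, 29.8%) and 6, 6 and 4 for the fractions in Ctrl, RK-33 and Combo (39.6%, 47.8% and 29.9%). With a log2 limit of 2 the counts were 0 for exons in NaAsO2 against Ctrl, RK-33 against Ctrl, the RK-33 fractions, the NaAsO2 shift and both interactions, and 0 for introns in NaAsO2 against Ctrl, RK-33 against Ctrl, Combo against NaAsO2 (soluble) and the NaAsO2, RK-33 and Combo fractions, but 1 for introns of Combo against RK-33 (insoluble) and of the soluble interaction. RLE factors and DESeq2 each gave 1 for exons in Combo against NaAsO2 (insoluble) and 2 for the NaAsO2 fractions. No filter gave 1, 1, 2, 7 and 1 for exons in Combo against NaAsO2 and against RK-33 (both insoluble), the NaAsO2 fractions, the NaAsO2 shift and the Combo shift. A mean of 5 CPM gave 2 and 7 for the NaAsO2 fractions and shift, and 1 and 1 for introns of the Ctrl and Combo fractions. Exon plus intron counts gave 1 for Combo against RK-33 (insoluble) and 2 for the RK-33 fractions. Library size alone gave 7 for the NaAsO2 shift, 0 for the soluble exon interaction, and for introns 1 in NaAsO2 against Ctrl (soluble), 5 in the Ctrl and 4 in the RK-33 fractions; it moved the all-gene exon median of NaAsO2 against Ctrl (soluble) by -0.18. The compared groups alone gave 1 for introns of the NaAsO2 fractions. Exon library sizes and factors, an alternative chosen after seeing the data, gave for introns 1 in Combo against NaAsO2 (insoluble), 2 and 1 in the Ctrl and Combo fractions and 1 in the soluble interaction. The cause was not tested.

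With 1 library left out, exon counts ranged over 1 to 2 and 4 to 8 for NaAsO2 against Ctrl, 1 to 2 for RK-33 (soluble), 0 to 1 for Combo against NaAsO2 (insoluble), 1 to 2 for the NaAsO2 fractions, 2 to 7 and 0 to 2 for the NaAsO2 and Combo shifts, and 0 to 1 and 1 to 3 for the interactions. Intron counts ranged over 1 to 3 for NaAsO2 against Ctrl (soluble), 0 to 1 and 0 to 1 for Combo against NaAsO2, 0 to 2 and 1 to 3 for the Ctrl and Combo fractions and 1 to 2 for the soluble interaction. Same-numbered fractions are described as coming from 1 lysate, but the correlations of their deviations ran from -0.32 to 0.34 (exons) and -0.44 to 0.20 (introns), so the fits without a block were kept. With the replicate number as a block, KLF2 missed the threshold for the NaAsO2 shift (0.97, adjusted p = 0.0521; by lysate 0.90, adjusted p = 0.0998), which left 3 genes called, and no other KLF call changed. Low intron counts limit KLF2, KLF10 and KLF16, with 9 to 117 fragments a library, and KLF4 was too low to test.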
